A study of Mus musculus with 12 samples.

Results

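The adrenal RNA of mice exposed to aspartame and, during development, to CGP 39551 (ASP+CGP) was set against that of mice exposed to aspartame alone (ASP), to find what antagonism of the NMDA receptor during development changed in aspartame-exposed animals. The comparison used 6 of the 12 arrays of the series, 3 titled for the combined treatment and 3 titled for aspartame without antagonism. All mice were male C57Bl/6J and 21 weeks old when the adrenal glands were frozen. The ASP+CGP and ASP mice met the sweetener aspartame first through their dams and then in their own drinking water until the end, and the labels give 46 mg/kg of body weight as the amount. This is an estimate of intake and not a measured dose. The dams of the ASP+CGP mice, and not those of the ASP mice, also received CGP 39551 in their water up to weaning, at an amount set to reach 5 mg/kg. CGP 39551 competes with glutamate at its NMDA-type receptor and acts when taken by mouth. The other 6 arrays came from mice whose dams received CGP 39551 without aspartame (CGP) and from untreated controls (CON), 3 arrays each, and were used to set the effect of CGP 39551 with aspartame beside its effect without it. Each group was 1 pool of RNA from its mice, applied to 3 Affymetrix Mouse Gene 1.0 ST arrays, so the errors and p-values below cover how arrays of the same pool varied and carry nothing of the variation among mice. With 1 pool per group, an effect of the treatment and a difference in the tissue that entered a pool cannot be told apart, and a gene is said to fall or rise only in the sense that its signal was lower or higher in ASP+CGP than in ASP.

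The adrenal gland has an outer cortex, which makes corticosterone and aldosterone from cholesterol, and an inner medulla of chromaffin cells, which make and release epinephrine and norepinephrine. Glutamate and GABA are the main excitatory and inhibitory transmitters of the brain, where neurons, oligodendrocytes (which form central myelin) and astrocytes (which clear both transmitters) carry most of their receptors, enzymes and transporters. Chromaffin cells arise from the neural crest and share a smaller set of secretory and receptor genes with neurons.

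Signals are log2 values, so a difference of 1 is a doubling, and 6 was taken as the floor of reliable signal. The defining adrenal genes stood far above it in both pools. Star, the cholesterol carrier that starts steroid synthesis, had signals of 13.53, 13.55 and 13.50 on the ASP+CGP arrays and 13.38, 13.46 and 13.39 on the ASP arrays. Th, the first enzyme of catecholamine synthesis, had 13.31, 13.30 and 13.28 on the ASP+CGP arrays and 12.93, 12.96 and 13.01 on the ASP arrays, a difference of 0.33 that did not reach 1.4-fold. Arrays correlated over all probe sets with r of 0.989 to 0.993 within ASP+CGP, 0.992 to 0.993 within ASP and 0.918 to 0.935 between the pools. The interquartile range of the signals was 2.196 to 2.294 on the ASP+CGP arrays and 2.522 to 2.607 on the ASP arrays.

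Of 15900 genes tested, 1041 (6.55%) were called higher and 2121 (13.3%) lower in ASP+CGP, a call being a limma adjusted p under 0.05 with a change of at least 1.4-fold. Of these calls 67.1% were therefore falls, a share that was 57% after each array was centred on its median and 80.6% after cyclic loess scaling. Falls were also larger than rises. There were 854 genes lower by over 2-fold and 233 lower by over 4-fold, against 15 higher by over 2-fold. The median difference over all genes tested was -0.02, and the middle of the distribution ran from -1.05 at the 5th percentile to 0.52 at the 95th. The arrays of the pools did not overlap for 10394 genes (65.4%), and 10027 genes had an adjusted p under 0.05 before the fold minimum was applied.

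The genes that fell furthest encode proteins of brain cells. Slc6a11 (Entrez 243616, chromosome 6), the GABA transporter GAT-3 of astrocytes, had signals of 6.28, 6.28 and 6.21 on the ASP+CGP arrays and 11.55, 11.47 and 11.54 on the ASP arrays. It was 38.4-fold lower in ASP+CGP (log2 difference -5.26 ± 0.06 SE, n = 3 arrays per pool, limma adjusted p = 3.07e-16), the largest fall of any gene tested. Its signals without aspartame were 5.80, 5.87 and 6.03 on the CGP arrays and 6.08, 5.97 and 6.05 on the CON arrays, so the ASP arrays stood apart from all others. Calb2, which encodes the neuronal calcium-binding protein calretinin, had 5.65, 5.50 and 5.65 in ASP+CGP against 10.44, 10.46 and 10.12 in ASP. The pools were separated by more than 4 log2 units on every array, and with the ASP+CGP mean set to the floor of 6 the fall was at least 20.2-fold. Gpm6a, a membrane glycoprotein of neurons, had 7.04, 7.06 and 6.94 in ASP+CGP against 11.38, 11.41 and 11.37 in ASP and was 20.7-fold lower.

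The other large falls followed the same separation of the pools. Ptgds, the prostaglandin D synthase of myelinating glia and meninges, had 8.27, 8.50 and 8.26 in ASP+CGP against 12.58, 12.41 and 12.42 in ASP (17.4-fold lower). Camk2a, the calcium-dependent kinase of excitatory synapses, had 6.67, 6.59 and 6.68 in ASP+CGP against 10.75, 10.70 and 10.55 in ASP (16.3-fold lower). Aldoc, an aldolase of astrocytes, had 8.55, 8.63 and 8.53 in ASP+CGP against 12.22, 12.35 and 12.31 in ASP (13.2-fold lower). None of these arrays overlapped between the pools, as was so for 65.4% of all genes tested. Vstm2a, a secreted protein of the immunoglobulin superfamily, had 5.69, 5.53 and 5.72 in ASP+CGP against 9.67, 9.86 and 9.26 in ASP, a fall of at least 12.1-fold. Sst, Pmch and Gria1, also among the 10 largest falls, are described with their groups.

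**Figure D1:**
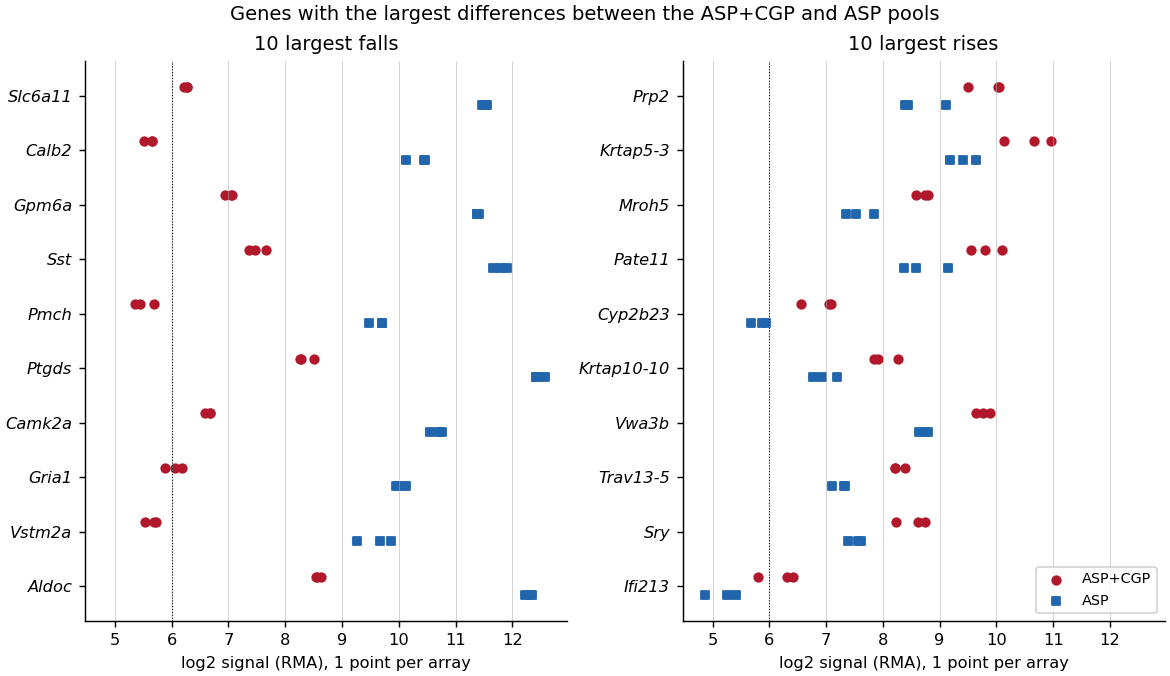
Signals of the 10 genes with the largest falls (left) and the 10 with the largest rises (right) in ASP+CGP against ASP, excluding predicted, clone-named, olfactory, vomeronasal and small RNA genes. The horizontal axis is the log2 signal and each point is 1 array, with ASP+CGP as red circles above ASP as blue squares; the dotted line marks the floor of 6. The differences run from -3.72 to -5.26 log2 units among the falls and from 1.0 to 1.21 among the rises, and no gene shown has overlapping pools.

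Neuropeptide precursors of the hypothalamus contributed several of the largest falls. Of 28 tested, 13 fell and 1 rose (46.4% and 3.57%, against 13.3% and 6.55% of all genes). Their median difference was -0.36, beside -0.02 over all genes. Sst, the precursor of somatostatin, which restrains growth hormone release, had 7.66, 7.36 and 7.47 in ASP+CGP against 11.66, 11.80 and 11.90 in ASP, 19.6-fold lower (log2 difference -4.29 ± 0.09 SE, limma adjusted p = 2.82e-14). Pmch, the precursor of melanin-concentrating hormone, which drives feeding, had 5.35, 5.45 and 5.70 in ASP+CGP against 9.70, 9.70 and 9.48 in ASP, at least 12.4-fold lower. Hcrt, which encodes orexin and sustains wakefulness, had 7.47, 7.25 and 7.40 in ASP+CGP against 10.64, 10.83 and 10.55 in ASP (9.85-fold lower). Pmch and Hcrt are made by separate neurons of the lateral hypothalamus. The tachykinin precursors Tac1 and Tac2 had log2 differences of -2.66 and -2.55. Penk, the enkephalin precursor that chromaffin cells also store, had 10.46, 10.60 and 10.48 in ASP+CGP against 11.53, 11.60 and 11.61 in ASP, 2.1-fold lower. Pomc, the precursor of ACTH, had a difference of only -0.27 ± 0.07 SE and was not called. The precursors differed widely among themselves. In neither direction were 14 of the 28 called, a call requiring both the adjusted p and the 1.4-fold minimum.

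The promoter sequences of the GABA transporter and of the neuropeptide genes with the largest falls are printed below. These genes were picked for their falls, so their shared direction is no separate result. Each is the 100 bases just before the RefSeq start site on GRCm38.p6, read 5′ to 3′ on the gene's strand. Capitals mark a match to the cyclic AMP response element TGACGTCA or to the TATA box letters TATAAA, both searched on either strand with no overlap between them.
Slc6a11 (chr6:114131141-114131240, plus strand): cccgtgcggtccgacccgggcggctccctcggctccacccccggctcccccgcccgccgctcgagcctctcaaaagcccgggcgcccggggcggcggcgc
Sst (chr16:23890845-23890944, minus strand): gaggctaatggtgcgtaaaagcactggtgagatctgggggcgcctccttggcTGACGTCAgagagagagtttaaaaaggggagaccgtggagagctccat
Pmch (chr10:88090972-88091071, plus strand): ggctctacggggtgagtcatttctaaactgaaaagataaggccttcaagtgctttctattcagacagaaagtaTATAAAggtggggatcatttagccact
Hcrt (chr11:100762932-100763031, minus strand): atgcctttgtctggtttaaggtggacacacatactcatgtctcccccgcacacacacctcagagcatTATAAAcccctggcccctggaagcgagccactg
Sst held the cyclic AMP response element and Pmch and Hcrt the TATA letters, while neither set of letters stood in the Slc6a11 window. In the 250 bases before the start, TGACGTCA stood in 2.86% of 1678 genes called lower, 0.658% of 760 called higher, 2.79% of 10066 tested and not called, and 1.77% of all 27025. TATAAA stood in 9% of those called lower, 14.2% of those called higher, 9.01% of those not called and 14.3% of all. The share among genes that fell was thus close to that among genes not called for either motif.

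Genes for GABA signalling fell as a group. Of 12 GABA-A receptor subunits tested, which form the chloride channel of fast inhibition, 10 fell and 0 rose (83.3%, against 13.3% of all genes), with a median difference of -2.25. Gabrb2 had 5.68, 5.50 and 5.51 in ASP+CGP against 9.11, 9.44 and 9.17 in ASP, a fall of at least 9.42-fold, and 2 further probe sets of the gene gave differences of -3.72 and -3.78. Gabra5 had 5.85, 5.82 and 5.74 in ASP+CGP against 9.15, 9.35 and 9.22 in ASP, at least 9.43-fold lower. The pools were apart by over 3 log2 units for both. Gabrg1, Gabrq and Gabrb1 had differences of -3.08, -2.68 and -2.61. Both subunits of the metabotropic GABA-B receptor fell as well. Gabbr2 had 7.10, 6.99 and 7.04 in ASP+CGP against 10.23, 10.34 and 10.35 in ASP (9.58-fold lower), and Gabbr1 had 8.82, 8.88 and 8.74 against 11.48, 11.51 and 11.53 (6.47-fold lower). Gad2, one of the enzymes that make GABA from glutamate, had 5.95, 5.85 and 6.11 in ASP+CGP against 9.41, 9.69 and 9.53 in ASP, at least 11.7-fold lower.

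Genes for glutamate signalling fell likewise, and they include the receptor family that CGP 39551 binds. Of 15 ionotropic subunits tested, 12 fell and 0 rose (80% lower, against 13.3% of all genes), with a median difference of -1.52. Gria1, a subunit of the AMPA receptor of fast excitation, had 5.89, 6.05 and 6.18 in ASP+CGP against 9.95, 10.01 and 10.12 in ASP, 15.8-fold lower (log2 difference -3.99 ± 0.10 SE, limma adjusted p = 2.43e-13). Grin2b, a subunit of the NMDA receptor, had 6.26, 6.10 and 6.14 in ASP+CGP against 8.33, 8.61 and 8.35 in ASP, 4.79-fold lower, and Grin3a of the same receptor had 6.84, 6.87 and 6.89 against 8.50, 8.62 and 8.54, 3.23-fold lower. The pools did not overlap for these subunits, as was so for 65.4% of all genes tested. The delta receptor gene Grid1 and the kainate receptor gene Grik3 had differences of -2.32 and -1.79. Of 8 G protein-coupled receptors for glutamate and GABA 7 fell (87.5%, median -1.62), with Grm5 and Grm3 at -2.15 and -2.10.

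The enzymes and transporters that handle GABA and glutamate numbered 18, of which 14 fell and 0 rose (77.8% lower, against 13.3% of all genes, median -1.56). Slc1a2, the main glutamate transporter of astrocytes, had 7.26, 6.93 and 7.13 in ASP+CGP against 10.77, 10.81 and 10.88 in ASP, 13.1-fold lower. Slc1a3, the other astrocyte glutamate transporter, had 8.02, 8.14 and 8.01 in ASP+CGP against 10.35, 10.52 and 10.48 in ASP (5.25-fold lower). Slc17a6, which loads glutamate into vesicles of hypothalamic and other subcortical neurons, had 5.48, 5.58 and 5.57 in ASP+CGP against 8.35, 8.83 and 8.56 in ASP, at least 5.98-fold lower. The spread between arrays of a pool was under 0.5 log2 units for each of these genes, against separations of over 2.

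Genes for the firing and release machinery of neurons showed the same direction. Of 37 synaptic vesicle and release genes 31 fell and 1 rose (83.8% and 2.7%, against 13.3% and 6.55% of all genes, median -1.11). Napb, a brain form of the factor that recycles SNARE complexes, had 6.73, 6.90 and 6.81 in ASP+CGP against 10.01, 10.02 and 9.95 in ASP (9.07-fold lower). Sv2a, a vesicle glycoprotein, was 8.24-fold lower, and Cplx1, a complexin that clamps release, 8.59-fold lower. Snap25 and Syt1, which chromaffin cells also use for exocytosis, fell as well. Snap25 had 10.47, 10.51 and 10.43 in ASP+CGP against 12.42, 12.39 and 12.30 in ASP (3.74-fold lower), and Syt1 had 9.33, 9.54 and 9.37 against 11.57, 11.62 and 11.63 (4.58-fold lower). The pools did not overlap for either, as was so for 65.4% of all genes tested.

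Among ion channels 20 of 30 sodium and calcium channel subunits fell and 0 rose (66.7% lower, against 13.3% of all genes, median -1.20). Of 43 potassium channel subunits 22 fell and 1 rose (51.2% and 2.33%, against 13.3% and 6.55% of all genes, median -0.51). Cacng3, which escorts AMPA receptors to the synapse, was 5.81-fold lower and the sodium channel subunit Scn2b 4.7-fold lower in ASP+CGP. Kcnj10, the potassium channel of glia, had 7.40, 7.65 and 7.65 in ASP+CGP against 10.46, 10.60 and 10.54 in ASP (7.78-fold lower). Kcnc2, a channel of fast-spiking neurons, had a difference of -2.69. Of the neuronal adhesion molecules, which hold synapses and axons together, 40 of 43 fell and 0 rose (93% lower, median -1.50). Among them were Nrxn3, which binds its partners across the synapse, at 10.1-fold lower and the contactin gene Cntn1 at 9.93-fold lower. Of 32 receptors for monoamines and acetylcholine 10 fell and 2 rose (31.2% and 6.25%, against 13.3% and 6.55% of all genes, median -0.20). The serotonin receptor gene Htr2c had 5.95, 5.72 and 5.86 in ASP+CGP against 8.33, 8.59 and 8.34 in ASP, at least 5.35-fold lower, and the muscarinic receptor gene Chrm2 was 5.04-fold lower.

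**Figure D2:**
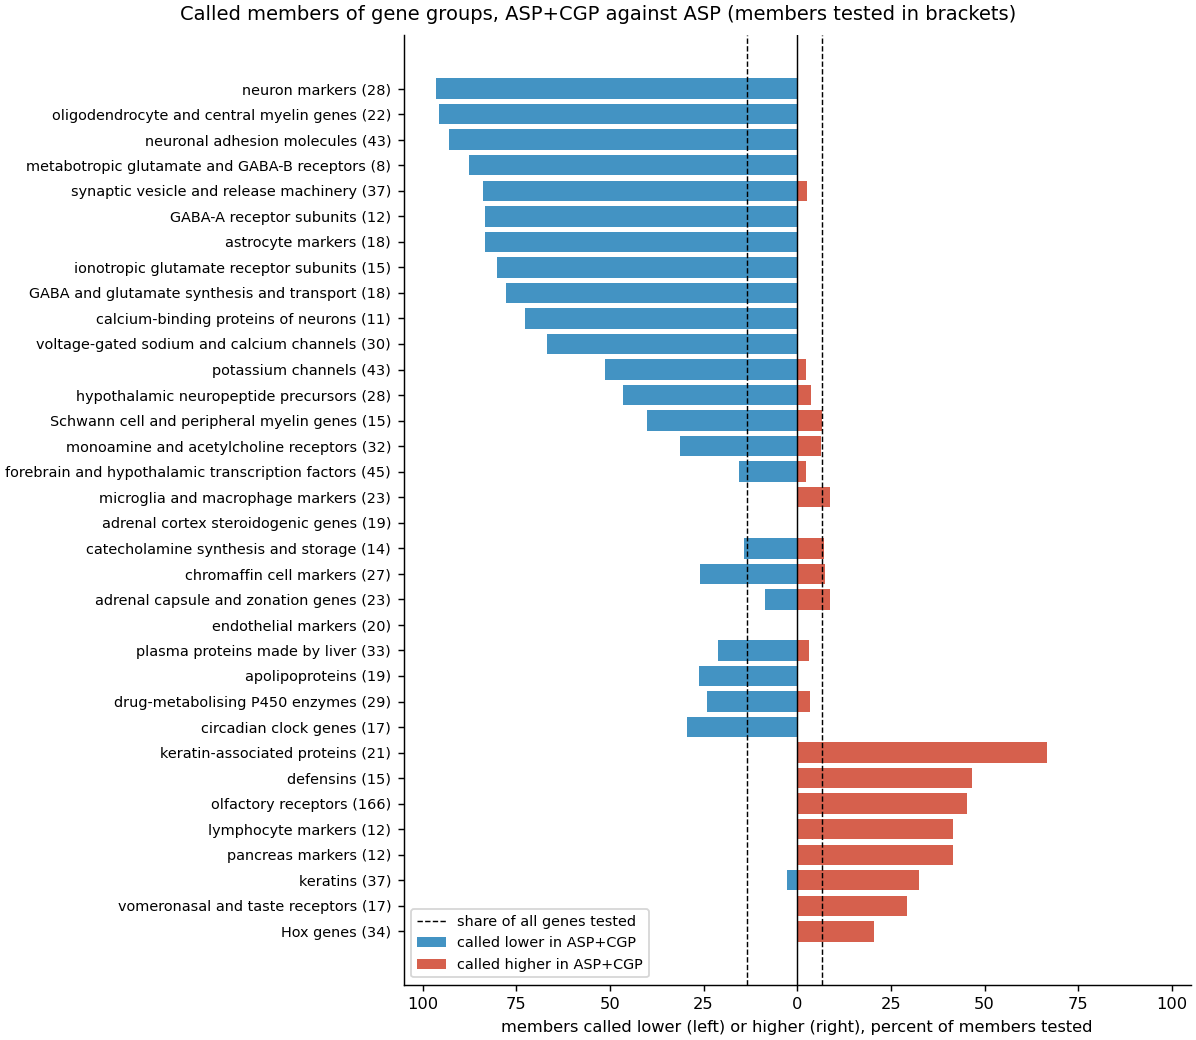
Share of the tested members of 34 gene groups called lower (blue, to the left) or higher (red, to the right) in ASP+CGP against ASP, in percent, with the number tested in brackets. Dashed lines mark the share of all 15900 genes called lower (13.3%) and higher (6.55%). Groups of brain cell function lie at the top with falls of up to 96.4% of members, the steroidogenic and endothelial groups have no called member, and keratin-associated, olfactory receptor and defensin genes at the bottom have rises only.

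Markers of brain cell types moved with all of these groups. Of 28 neuron markers 27 fell and 0 rose (96.4% lower, against 13.3% of all genes, median -2.08). Of 22 oligodendrocyte and central myelin genes 21 fell and 0 rose (95.5% lower, median -1.79). Of 18 astrocyte markers 15 fell and 0 rose (83.3% lower, median -1.90). The summed linear signal of the neuron markers was 16460 to 17830 on the ASP+CGP arrays and 54530 to 56230 on the ASP arrays, that of the oligodendrocyte genes 3628 to 3741 and 19910 to 20190, and that of the astrocyte markers 8358 to 8858 and 20990 to 23140. Their part in the receptor, channel and neuropeptide results was not tested, and in pooled tissue fewer cells of a type and less RNA per cell cannot be told apart. No marker was at 0, and how much of the remaining signal was array background was not tested.

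Single markers showed the size of the separation. Nefl, the light neurofilament of axons, had 7.32, 7.26 and 7.08 in ASP+CGP against 10.68, 10.80 and 10.58 in ASP (11-fold lower). Mobp, a protein of the central myelin sheath, had 6.61, 6.50 and 6.51 in ASP+CGP against 10.27, 10.37 and 10.03 in ASP (12.8-fold lower), and Mbp, myelin basic protein, had 8.05, 8.0 and 7.94 against 11.33, 11.38 and 11.39 (10.3-fold lower). Gfap, the intermediate filament of astrocytes, had 6.63, 6.62 and 6.65 in ASP+CGP against 8.68, 8.71 and 8.45 in ASP (3.94-fold lower), and the water channel gene Aqp4 was 2.26-fold lower. Rbfox3, which encodes the neuronal nuclear protein NeuN, was 3.85-fold lower. Each of these genes had pools that did not overlap, as was so for 65.4% of all genes tested. Of 23 microglia and macrophage markers 0 were called lower and 2 higher (8.7%, against 6.55% of all genes), and 1 was called lower after cyclic loess or quantile scaling. Their median difference was 0.18. P2ry12, a purine receptor of microglia, had 6.60, 6.55 and 6.64 in ASP+CGP against 7.14, 6.96 and 6.95 in ASP, a difference of -0.42 that stayed under 1.4-fold although the pools did not overlap. Csf1r, the receptor on which microglia and macrophages depend, had a difference of -0.41, likewise without overlap. Cx3cr1, the fractalkine receptor of microglia, overlapped between the pools at a difference of -0.24. Cd68, a lysosomal protein of macrophages, was 1.43-fold higher and Clec4f 1.45-fold higher. Mrc1 had a difference of 0.41 without overlap and was not called.

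On the arrays without aspartame the brain cell groups stood at the level of the combined pool. Relative to the mean of the CON arrays, the median over the neuron markers was -0.04, 0.07 and -0.03 on the ASP+CGP arrays and 2.04, 2.06 and 2.01 on the ASP arrays, with -0.06, -0.03 and -0.00 on the CGP arrays. The same medians for GABA-A receptor subunits were -0.01, 0.10 and 0.06 on the ASP+CGP arrays, 2.06, 2.26 and 1.95 on the ASP arrays and -0.08, -0.04 and 0.05 on the CGP arrays. For the oligodendrocyte genes they were 0.30, 0.27 and 0.18 on the ASP+CGP arrays, 1.86, 2.10 and 2.12 on the ASP arrays and -0.02, -0.02 and 0.11 on the CGP arrays. The ASP arrays were thus the ones that stood apart in each group, and the oligodendrocyte medians of all 3 ASP+CGP arrays also lay above those of the 3 CGP arrays. Of 15 Schwann cell and peripheral myelin genes 6 fell (40%, against 13.3% of all genes) and 1 rose, with a median of -0.00, and their summed linear signal was 7446 to 8151 on the ASP+CGP arrays and 9516 to 9832 on the ASP arrays, the highest of the 4 pools. Drp2, a dystrophin-related protein of peripheral myelin, had 6.09, 6.26 and 6.34 in ASP+CGP against 7.92, 8.05 and 7.99 in ASP (3.37-fold lower).

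**Figure D3:**
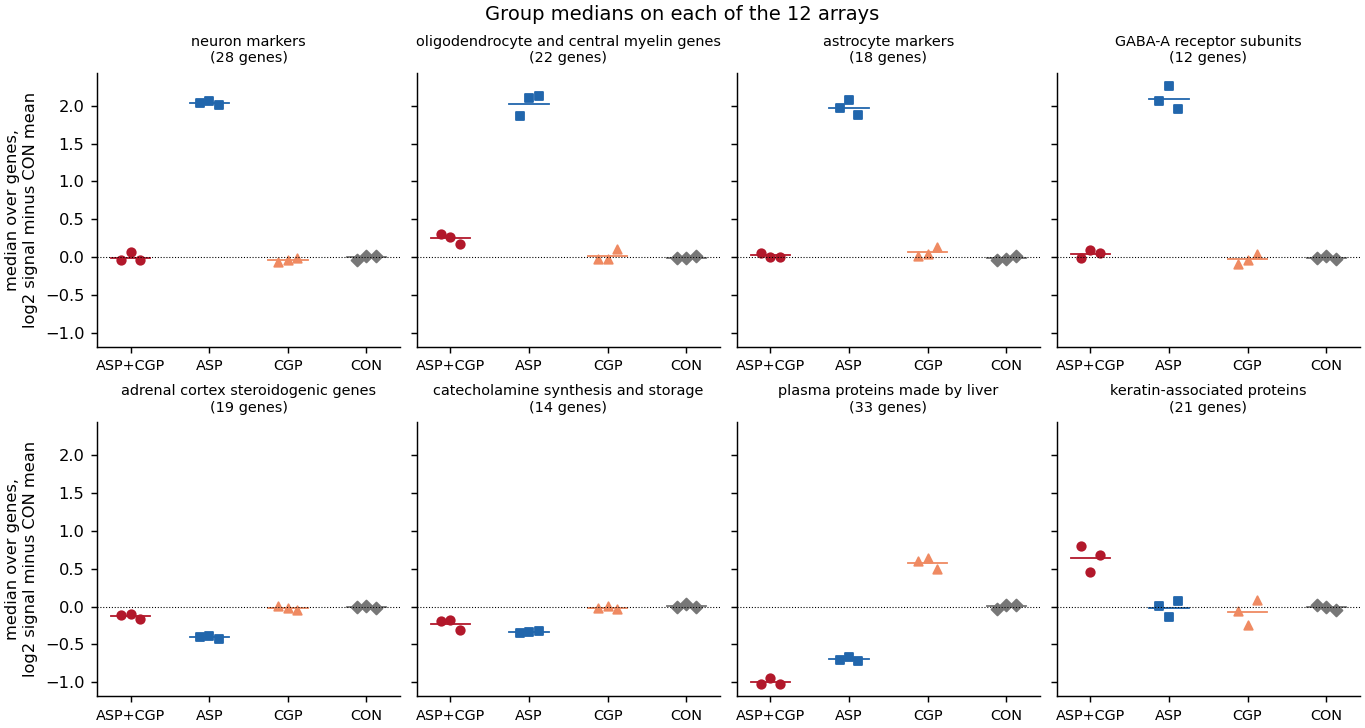
Median over the genes of 8 groups on each of the 12 arrays, as log2 signal minus the mean of the CON arrays (vertical axis), with 1 point per array and a line at the mean of each pool. The 4 brain groups of the upper row lie near 2 on the ASP arrays and between -0.08 and 0.30 on all others; in the lower row the steroidogenic and catecholamine groups lie below 0 on the aspartame arrays, the plasma proteins lie above 0 on the CGP arrays and below it on the aspartame arrays, and the keratin-associated genes lie highest on the ASP+CGP arrays.

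Transcription factors that pattern the forebrain and hypothalamus were mostly not called, with 7 of 45 lower (15.6%, against 13.3% of all genes) and 1 higher and a median of -0.07. The count lower was 11 after cyclic loess, 10 after quantile normalisation and 5 after median centring. The members that fell included Zic1, with 5.92, 6.05 and 6.29 in ASP+CGP against 8.14, 8.13 and 8.27 in ASP (4.26-fold lower), Zic2 (4.02-fold lower) and Sox2, a factor of neural progenitors and glia, with 5.86, 5.84 and 6.03 against 8.16, 8.11 and 7.44 (at least 3.75-fold lower). Dlx1, a factor of GABA neurons, was 2.33-fold lower. Of the calcium-binding proteins of neurons 8 of 11 fell (72.7%, against 13.3% of all genes, median -1.32). They included Calb1, with 4.83, 4.93 and 5.03 in ASP+CGP against 8.58, 8.44 and 8.22 in ASP, at least 5.33-fold lower.

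Most of the adrenal's own genes were not called. Of 19 steroidogenic genes of the cortex 0 were called (median 0.13), against 13.3% lower and 6.55% higher of all genes. After each array was centred on its median 1 was called higher. Cyp11b2, which makes aldosterone, had 12.19, 12.20 and 12.14 in ASP+CGP against 11.76, 11.83 and 11.81 in ASP, a difference of 0.37 ± 0.06 SE. Cyp11b1, which makes corticosterone, had 13.96, 13.92 and 13.86 in ASP+CGP against 13.84, 13.82 and 13.76 in ASP, a difference of 0.11 ± 0.05 SE (limma adjusted p = 0.0884). The Cyp11b2 arrays did not overlap, as was so for 65.4% of all genes tested, and the difference stayed under 1.4-fold. Of 23 genes of cholesterol synthesis and uptake 1 fell (4.35%, against 13.3% of all genes). This was Hmgcs1, which feeds the mevalonate pathway (1.51-fold lower, a call lost after cyclic loess or quantile scaling). Of 23 genes of the capsule and cortical zones 2 fell and 2 rose (8.7% each, against 13.3% lower and 6.55% higher of all genes). Vsnl1, a calcium sensor of aldosterone-producing cells and of neurons, had 11.25, 11.57 and 11.33 in ASP+CGP against 12.98, 13.04 and 13.07 in ASP (3.13-fold lower), and Ptch1, the hedgehog receptor of capsular cells, was 2.05-fold lower. Tcf21, a capsular transcription factor, was 1.57-fold higher.

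In the medulla the enzymes of catecholamine synthesis were not called, while single transporters and granule genes were. Dbh and Pnmt, which make norepinephrine and epinephrine, had differences of 0.35 ± 0.05 and 0.13 ± 0.05 SE. Ddc, another enzyme of the pathway, went the other way at -0.46 ± 0.07 SE, under 1.4-fold. Its pools did not overlap, as was so for 65.4% of all genes tested. Slc6a2, the norepinephrine transporter, had 8.59, 8.50 and 8.41 in ASP+CGP against 7.83, 7.84 and 7.82 in ASP and rose 1.59-fold (limma adjusted p = 1.28e-06). Slc6a3, the dopamine transporter of midbrain and hypothalamic neurons, had 7.46, 6.97 and 7.27 in ASP+CGP against 9.75, 9.95 and 9.85 in ASP and fell 6.14-fold. The transporters moved in opposite directions with no overlap between pools. Of 27 chromaffin cell markers 7 fell and 2 rose (25.9% and 7.41%, against 13.3% and 6.55% of all genes). After cyclic loess scaling 6 fell and 6 rose. Those that fell furthest are also used by neurons, namely Syt1, the granule protein gene Scg3 (2.67-fold lower), the receptor tyrosine kinase gene Ret (2.31-fold lower), Penk and the peptide precursor gene Vgf (1.98-fold lower). Chga, the chromogranin that defines chromaffin granules, had 13.59, 13.65 and 13.61 in ASP+CGP against 13.46, 13.46 and 13.44 in ASP, a difference of 0.16.

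Far fewer genes differed between the CGP and CON pools. Against CON, 257 genes (1.62%) were called higher in CGP and 3 lower. Genes of liver function were among them. In 7 groups of such genes (plasma proteins, apolipoproteins, coagulation and complement, P450 enzymes, conjugation enzymes, bile acid genes and amino acid breakdown) the median difference of CGP against CON was 0.57 to 0.93, with 13 to 26 members called higher in each. In ASP+CGP against ASP the medians of the same groups were -0.31 to 0.04, with 2 to 7 members called lower and at most 1 higher. The shares lower were 6.67% to 26.3%, on either side of the 13.3% of all genes. These counts moved with the scaling, to 0 lower for amino acid breakdown after cyclic loess, 0 lower for amino acid breakdown and conjugation enzymes after median centring, and 3 higher for bile acid genes after quantile normalisation. Below, an effect of CGP 39551 means a difference between these pools, which cannot be told apart from a difference in pooled tissue. The difference between the effects was tested directly as the effect with aspartame minus the effect without. Over all genes 1434 (9.02%) were called higher by this measure and 2472 (15.5%) lower, and 15 to 26 members of each of the 7 groups were among the lower ones.

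Among the single genes named here from these groups, Cyp3a11, Vtn and Lcat showed the split on every array. The others were called with aspartame or without it, and not in both. Cyp3a11, a major drug-metabolising P450 of liver, had 8.79, 9.19 and 9.0 in ASP+CGP against 10.20, 10.42 and 10.06 in ASP, and 11.83, 11.44 and 11.25 in CGP against 9.98, 10.09 and 9.94 in CON. It was thus 2.35-fold lower with aspartame and 2.84-fold higher without, and the effects differed by -2.74 ± 0.19 SE (limma adjusted p = 2.39e-08). Vtn, the plasma protein vitronectin, had 9.01, 9.31 and 9.14 in ASP+CGP against 10.44, 10.49 and 10.40 in ASP, and 11.53, 11.58 and 11.54 in CGP against 10.81, 10.81 and 10.82 in CON. Hamp, the iron-regulating hormone hepcidin, was called with aspartame and not without, at 8.77, 8.95 and 8.78 in ASP+CGP against 10.13, 9.93 and 9.93 in ASP (2.24-fold lower), beside 11.10, 11.05 and 11.05 in CGP and 10.94, 11.04 and 11 in CON, and the effects differed by -1.24. Hamp2, its mouse paralogue, rose 1.78-fold with aspartame. Near-identical copies can share probes, so the 2 hepcidin genes may not be fully separated. Apod, an apolipoprotein made by glia and other tissues, was 5.26-fold lower, Lcat, which esterifies plasma cholesterol, 1.86-fold lower, and Apoa4 1.51-fold lower (a call lost after cyclic loess or quantile scaling). Alb, albumin, had 12.49, 12.39 and 12.36 in ASP+CGP against 12.70, 12.68 and 12.65 in ASP and was not called.

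Genes called in opposite directions numbered 44, of which 43 were lower with aspartame and higher without. The 4 with the largest difference between effects were Slc1a2, Ddah1, Mal2 and Agt. Ddah1, which breaks down an inhibitor of nitric oxide synthesis, had 7.23, 7.40 and 7.46 in ASP+CGP against 10.66, 10.63 and 10.63 in ASP, and 8.63, 8.76 and 8.59 in CGP against 7.80, 8.03 and 7.91 in CON. Mal2, a membrane protein of polarised transport, had 6.78, 6.85 and 6.88 in ASP+CGP against 9.96, 10.07 and 9.79 in ASP, and 7.97, 7.86 and 7.74 in CGP against 7.15, 7.27 and 7.08 in CON. Agt, angiotensinogen, which liver and astrocytes both make, had 8.43, 8.67 and 8.58 in ASP+CGP against 11.30, 11.35 and 11.38 in ASP, and 10.06, 10.13 and 10.09 in CGP against 9.61, 9.55 and 9.61 in CON. In these 3 genes the ASP+CGP arrays were the lowest of the 12 and the ASP arrays the highest. Slc1a2, whose ASP+CGP and ASP signals are given above, had 7.60, 7.76 and 7.70 in CGP against 7.14, 7.16 and 7.26 in CON, and its ASP+CGP arrays overlapped the CON arrays.

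**Figure D4:**
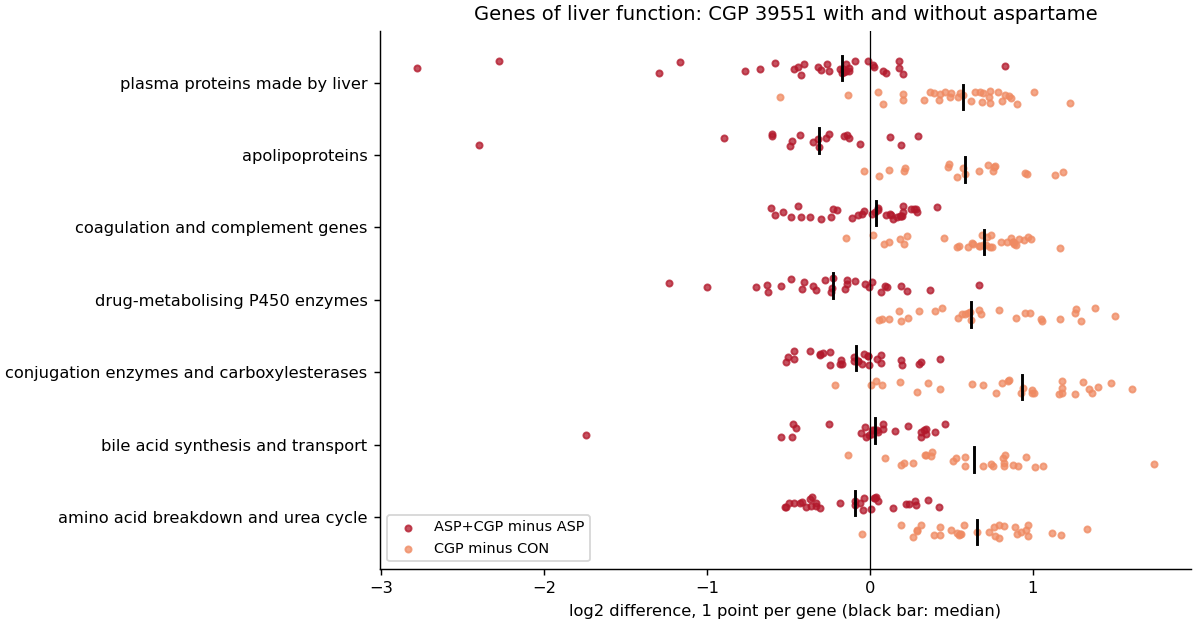
Log2 differences (horizontal axis) of the members of 7 gene groups of liver function, 1 point per gene, for ASP+CGP minus ASP (red, upper row of each pair) and CGP minus CON (orange, lower row), with black bars at the medians. The medians of CGP minus CON lie between 0.57 and 0.93 and those of ASP+CGP minus ASP between -0.31 and 0.04.

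The largest rises were small beside the falls, and included genes of hair, salivary gland and testis. Prp2, a proline-rich salivary protein, had 10.04, 9.50 and 10.04 in ASP+CGP against 8.44, 8.40 and 9.12 in ASP and rose 2.31-fold (log2 difference 1.21 ± 0.19 SE, limma adjusted p = 9.31e-05). Krtap5-3, a keratin-associated protein of hair, had 10.95, 10.14 and 10.66 in ASP+CGP against 9.42, 9.18 and 9.64 in ASP (2.26-fold higher). Sry, the sex-determining gene expressed in the testis, had 8.74, 8.23 and 8.62 in ASP+CGP against 7.56, 7.39 and 7.62 in ASP (2.01-fold higher). The pools were separated for all of these, by 1 log2 unit or little more in their means. Mroh5, Pate11, Krtap10-10, Vwa3b and the T cell receptor segment Trav13-5 rose 2.2-, 2.16-, 2.06-, 2.06- and 2.03-fold. Other probe sets gave smaller log2 differences, 0.20 to 0.82 on 6 of Mroh5 beside 1.14 on the one used, and 0.38 and 0.17 on those of Vwa3b beside 1.04. Cyp2b23 rose at least 1.87-fold and Ifi213, an interferon-inducible DNA sensor, at least 1.13-fold, their ASP means lying under 6. The predicted gene Gm10548 had the largest rise of any gene tested, 3.62-fold, at 11.81, 11.87 and 12.05 in ASP+CGP against 10.25, 9.91 and 10.01 in ASP.

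Rises were frequent in several families of tissue-restricted genes, although in all but the first of those below most members were not called. Of 21 keratin-associated proteins 14 rose and 0 fell (66.7%, against 6.55% of all genes), with a median of 0.68. Their median relative to CON was 0.79, 0.46 and 0.68 on the ASP+CGP arrays, 0.00, -0.14 and 0.08 on the ASP arrays and -0.06, -0.24 and 0.08 on the CGP arrays, so that the ASP+CGP arrays stood apart and the second of them stood lowest among the 3. Of 166 olfactory receptors, which are made in the nose, 75 rose (45.2%) and 0 fell (median 0.47). Of 37 keratins 12 rose (32.4%) and 1 fell (median 0.42). Of 15 defensins 7 rose (46.7%, median 0.46) and of 17 vomeronasal and taste receptors 5 rose (29.4%, median 0.41). Of 34 Hox genes 7 rose (20.6%, median 0.36). Olfr314 had 8.88, 8.43 and 8.70 in ASP+CGP against 7.72, 7.59 and 7.71 in ASP (2.00-fold higher). Cyclic loess scaling lowered the counts to 12 keratin-associated proteins, 17 olfactory receptors, 3 keratins, 2 defensins, 1 vomeronasal or taste receptor and 5 Hox genes.

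The direction of the differences varied with signal level. Among the 682 genes with a mean signal under 6 and the 3215 between 6 and 7, the median difference was 0.30 and 0.24, with 19.4% and 14.5% called higher. Among the 3683 between 8 and 9 and the 2657 between 9 and 10 it was -0.10 and -0.15, with 2.58% and 1.24% called higher and 16.7% and 15.5% lower. A gene with a mean under 6 was tested only where at least 1 pool reached 6, so the values of that band depend partly on the filter. The narrower signal range of the ASP+CGP arrays, given above, moved with the differences by signal level, and its part in the rises was not tested. Actb, a gene used as a control, had 13.90, 13.88 and 13.87 in ASP+CGP against 13.83, 13.84 and 13.85 in ASP and was not called.

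**Figure D5:**
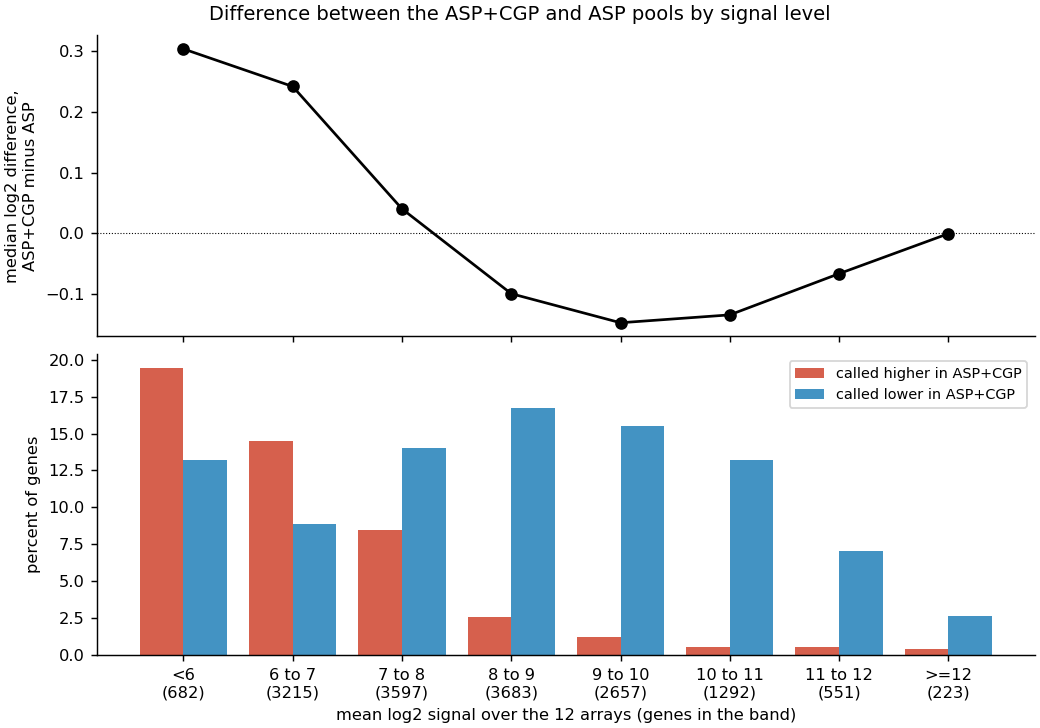
Median log2 difference of ASP+CGP minus ASP (upper panel) and percent of genes called higher (red) or lower (blue) in ASP+CGP (lower panel) in bands of the mean signal over the 12 arrays, with the number of genes in brackets. The median falls to -0.15 at 9 to 10 and is 0.30 under 6, and the share called higher is 19.4% under 6 and at most 0.544% at 10 and above. Genes in the band under 6 were tested only because at least 1 pool reached 6.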

How the data were processed

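Total RNA of adrenal glands was pooled by group, and each of 4 pools was hybridised to 3 arrays. Per the labels and the study's methods, the authors imported the scans into Partek and normalised them by RMA (robust multi-array averaging, which corrects background, quantile normalises and summarises probes), which gave the log2 signal of each probe set that they deposited. The number of arrays limits the precision. Of 26533 probe sets, 17710 matched 1 gene symbol in the platform annotation, 1077 several and 7746 none. Each of 16244 genes was represented by its brightest probe set on average over the 12 arrays, and 15900 genes with a mean of at least 6 in a pool were tested, leaving out 344. Just inside this limit lay Dok6 (6.0003 in ASP) and just outside Adh6a (5.9997). The limma package (version 3.58.1, run under R 4.3.3, with the data.table package, version 1.17.8) fitted 4 group means over all arrays, using moderated tests and Benjamini-Hochberg adjustment over all genes tested. Calls required an adjusted p under 0.05 together with a change of 1.4-fold or more. Contrasts were ASP+CGP minus ASP, CGP minus CON, and the first minus the second. Where a pool's mean lay under 6 it was set to 6, and the fold is given as a bound. The script was tested on simulated data.

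Named were the 10 largest rises and falls among called genes (predicted, clone-named, olfactory, vomeronasal and small RNA genes left out), up to 5 members with the largest difference in each of 51 gene lists, defining markers, the 4 largest differences between the effects of CGP 39551 in each direction among genes called oppositely in both, and genes the publication names. Gm10548 was named after its values were seen. The members and lists were chosen with earlier results of these data known. Alternatives were other filters on low signal, array scalings, moderation, array weights, fold minimums, adjustment over 4 contrasts, averaging of probe sets, the replicate number as a block, the 6 arrays alone, and leaving out each array. Promoter sequences came from RefSeq (GRCm38.p6), and 15854 symbols matched RefSeq by Entrez identifier.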

Additional observations from a re-analysis of the deposited data

Results flagged for a closer look

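By a direct test, the difference of ASP+CGP from ASP departed from that of CGP from CON. It was lower for 2472 genes and higher for 1434. Of these, 44 were called in opposite directions in ASP+CGP against ASP and in CGP against CON. The largest such differences were -4.21 ± 0.11 SE for Slc1a2, -4.02 ± 0.11 for Ddah1, -3.79 ± 0.11 for Mal2 and -3.28 ± 0.09 for Agt (limma adjusted p of 1.81e-12, 1.81e-12, 4.46e-12 and 2.2e-12).

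Probe sets that carry no gene symbol were not used in the report's comparisons, and they held differences too. Of 7228 such probe sets above the signal floor, 1398 (19.3%) were called higher and 559 (7.73%) lower in ASP+CGP against ASP. Of 1050 probe sets that match several genes, 87 (8.29%) were called higher and 83 (7.9%) lower. Groups of 3 arrays were too small to test for a single array far from the others.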

How the results depend on the processing

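The count of genes called lower stayed within 1.5 times its main value of 2121 under every setting but the fold minimum, and the count called higher (1041) was 635 with a mean of at least 7 required in ASP+CGP or ASP and 490 after cyclic loess scaling. With a 1.8-fold minimum 1088 genes were called (48 higher, 1040 lower), 1323 by the difference between effects, and 697 probe sets without a single gene. With no fold minimum these were 10027 (4768 higher, 5259 lower), 8175 and 3826. Leaving out 1 array at a time gave 2804 to 3703 genes called, 769 to 1364 higher and 2035 to 2339 lower, 3550 to 4426 by the difference between effects, and 1822 to 2361 probe sets. Tmem38b, at -0.15 and not called, reversed to 0.84 when all its probe sets were averaged. Same-numbered ASP+CGP and ASP arrays had deviations correlated at 0.106, 0.379 and 0.070. The second arrays had the highest value of any pair, and each correlated negatively with the other-numbered arrays of the other pool (-0.159 to -0.3). The first ASP+CGP array correlated best with the third ASP array (0.23). Whether same-numbered arrays share a source of deviation was not tested. With the replicate number as a block 3162 genes were called (1041 higher, 2121 lower), 3905 by the difference between effects and 2154 probe sets, and 0 of 290 named genes changed call. Among the named genes cyclic loess lost 39 calls and added 9, quantile normalisation lost 29 and added 16, and median centring lost 8 and added 8. The cause of these shifts was not tested.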

Other observations

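Several gene groups outside the nervous system and liver also had called members in ASP+CGP against ASP. Of 17 circadian clock genes 5 fell (29.4%, against 13.3% of all genes) and 0 rose (median -0.21). Ciart, a repressor within the clock, had 6.00, 6.02 and 6.04 in ASP+CGP against 7.64, 8.18 and 7.45 in ASP (3.34-fold lower), although another probe set of the gene gave a difference of -0.67. Cry2, a core clock repressor, had 8.50, 8.54 and 8.39 in ASP+CGP against 9.46, 9.53 and 9.49 in ASP (2.02-fold lower). The pools did not overlap for either gene, as was so for 65.4% of all genes tested. Ppargc1a, a coactivator of mitochondrial genes, had 7.08, 7.37 and 7.16 in ASP+CGP against 9.12, 9.03 and 8.93 in ASP (3.55-fold lower). Of 73 respiratory chain subunits 0 fell and 3 rose (0% and 4.11%, against 13.3% and 6.55% of all genes). Of 55 ribosomal proteins 0 were called, against the same shares of all genes.

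Of 12 lymphocyte markers 5 were called higher and 0 lower (median 0.34), and 3 were called higher after cyclic loess scaling, with a median of 0.15. The share was 41.7%, against 6.55% of all genes and 14.5% of genes with a mean signal between 6 and 7, near which the list lay (median 6.77 in ASP+CGP and 6.53 in ASP). Cd3e, a chain of the T cell receptor complex, had 7.82, 7.80 and 7.73 in ASP+CGP against 7.14, 7.02 and 7.20 in ASP (1.59-fold higher). Of 12 pancreas markers, at median signals of 7.04 in ASP+CGP and 6.66 in ASP, 5 were called higher (median 0.47). The share was 41.7%, against 6.55% of all genes, and the count was 3 after cyclic loess and 8 after median centring. Ppy, pancreatic polypeptide, had 8.36, 8.10 and 8.44 in ASP+CGP against 7.50, 7.19 and 7.49 in ASP (1.88-fold higher). Of 43 immediate early genes, which mark recent stimulation, 1 rose and 1 fell (2.33% each, against 6.55% higher and 13.3% lower of all genes). Of 20 endothelial markers 0 were called, against the same shares of all genes. Tmem38b, an intracellular cation channel, was not called on the probe set used, while another probe set had means of 8.65 in ASP+CGP and 6.82 in ASP.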
